A study of Mus musculus with 23 samples.

Results

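Cdkn1a, Gadd45a, Gadd45b, Ddit3, Plk2, Pmaip1 and Sesn1 are 7 genes of the p53 and cellular stress checkpoint response. They were taken as the array features whose gene symbol, in any of the 6 comparison tables the authors deposited, equals one of these names. Each symbol was carried by 1 transcript cluster (the array's unit for a gene), so the set holds 7 of the 65956 clusters that are not array controls, and 7 of the 280 clusters that could be named from those tables. The symbols stand only in the LMPP tables of p110δ loss and of the double loss, each of whose entries had a fold of at least 2.01 and a p-value of at most 0.049953, so those LMPP contrasts had a part in the choice of these genes. The HSC comparisons listed none of them. The genes were also chosen with earlier results of these data known, so the HSC values may have had a part as well.

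The series measured RNA of hematopoietic stem cells (HSC), the self-renewing cells of the bone marrow, and of lymphoid-primed multipotent progenitors (LMPP), early progenitors biased to lymphoid and myeloid fates. Both were sorted from pooled mouse recipients of bone marrow transplants, from lineage-negative, c-Kit-positive cells. Within these, HSC carried CD150 but neither Flk2 nor CD48, and LMPP carried Flk2 and CD48 but not CD150. The marrow was wild type (WT), p110α-/- (here alphaKO), p110δ-/- (deltaKO) or p110αδ DKO (DKO), and RNA of each sample was hybridised to 1 Affymetrix Mouse Transcriptome Assay 1.0 array. p110α and p110δ are catalytic subunits of phosphoinositide 3-kinase (PI3K). Each of the 8 groups of cell type and genotype held 3 arrays, except LMPP WT with 2, which makes 12 HSC and 11 LMPP arrays. The sources used here do not give the ages, the deleter or promoter behind the knockouts, the recipients' strain, or which pool an array came from, and residual host cells would not be told from donor cells. The labels do not state whether each array had its own pool, and the p-values below therefore reflect array-to-array spread that may be technical.

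The transcription factor p53 is stabilised by DNA damage and other stress and switches on genes that halt the cell cycle, repair DNA or start apoptosis. Cdkn1a (the cyclin-dependent kinase inhibitor p21), Gadd45a, Plk2, Pmaip1 (Noxa) and Sesn1 (sestrin) are classical targets of it, while Gadd45b is induced chiefly by NF-κB and TGF-β signals and Ddit3 (CHOP) by the integrated stress response. In blood stem cells p53 and p21 are known for restraining division, and PI3K acts against part of the same programme by holding FOXO transcription factors, which also drive several of these genes, out of the nucleus.

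Among the promoters of these genes, the letters of a p53 response element stand in one Cdkn1a promoter. RefSeq's table of promoters (GRCm38.p6, from 250 bases before to 50 bases after a start site) held 8 windows for 6 of the 7 genes. Letters of 4 kinds were searched on both strands, each without overlap between kinds in these windows: the p53 response element (its 10-letter unit placed 2 times side by side, core C and G kept, at most 1 letter off), the cyclic AMP response element TGACGTCA, the AP-1 site TGACTCA and the FOXO site GTAAACA. These motifs were chosen with the sequences at hand. The p53 element was found in 0.067% of 32851 windows, among them the upstream start site of Cdkn1a, where it begins 51 bases before the start. The cyclic AMP element was found in 1.79% of windows, among them that of Plk2, beginning 62 bases before the start, and the AP-1 letters in 5.2%, among them that of Ddit3, 242 bases before the start. The FOXO letters were found in 3.65% of windows, among them 1 of the 2 of Sesn1, 22 bases after the start. None of the 4 was in the windows of Gadd45a and Gadd45b or in the second windows of Cdkn1a and Sesn1, which says only that these letters are not in those windows. The 250 bases before the start are shown for the 3 genes whose match lies there, to let the letters be read in place, all on the plus strand, with the match in capitals: Cdkn1a chr17:29090729-29090978, Ddit3 chr10:127290543-127290792 and Plk2 chr13:110394794-110395043.
Cdkn1a: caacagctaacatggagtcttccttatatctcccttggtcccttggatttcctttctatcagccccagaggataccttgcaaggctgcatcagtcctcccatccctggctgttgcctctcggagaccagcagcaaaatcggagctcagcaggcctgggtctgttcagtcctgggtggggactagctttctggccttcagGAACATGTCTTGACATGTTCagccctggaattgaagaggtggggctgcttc
Ddit3: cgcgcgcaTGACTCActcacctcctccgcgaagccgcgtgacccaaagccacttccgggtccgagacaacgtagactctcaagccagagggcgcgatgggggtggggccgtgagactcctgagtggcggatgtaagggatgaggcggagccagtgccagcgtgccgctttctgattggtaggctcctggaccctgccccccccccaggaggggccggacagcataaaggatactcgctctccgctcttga
Plk2: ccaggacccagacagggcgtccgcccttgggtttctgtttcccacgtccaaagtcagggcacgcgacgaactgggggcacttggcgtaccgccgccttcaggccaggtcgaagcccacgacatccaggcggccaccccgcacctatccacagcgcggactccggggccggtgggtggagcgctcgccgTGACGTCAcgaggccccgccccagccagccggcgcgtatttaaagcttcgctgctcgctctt

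Values are log2 RMA values, the authors' normalised array signal on the log2 scale, on which a difference of 1 is a 2-fold change. Differences were tested with limma over the 32978 clusters with an average signal (over the 23 arrays) of at least 4.95, the median of these averages, and p-values were adjusted over all of them by Benjamini and Hochberg, with 0.05 as the threshold. All 7 genes passed that filter, with means over all arrays from 5.42 for Pmaip1 to 11.18 for Plk2. In bulk RNA, fewer cells of a type and less RNA per cell cannot be told apart. The second LMPP WT array stood apart from the rest, with a median log2 value of 5.29 against 4.83 to 5.04 in the other 22 arrays, and a mean correlation of 0.961 with the other LMPP arrays against 0.98 to 0.986. LMPP differences from WT are therefore given with and without it. Of the sort markers listed for LMPP none was named in the deposited tables, and Pik3ca and Pik3cd, the deleted genes, were not analysed here for the same reason. Of 10 HSC markers 3 (Vwf, Tek and Selp) were named, and all 3 were higher in HSC, beside 12.8% of clusters.

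Cdkn1a was high and variable in WT and alphaKO cells and low and even in deltaKO and DKO cells, in both cell types. In HSC it measured 11.75, 13.38 and 10.45 in the 3 WT arrays and 13.09, 10.80 and 10.65 in the alphaKO arrays, against 10.57, 10.25 and 9.29 in deltaKO and 10.20, 10.32 and 9.41 in DKO arrays. Every DKO array lay below every WT array, while the lowest WT array lay within the deltaKO range. In LMPP it measured 11.45 and 13.02 in WT and 13.12, 11.54 and 10.86 in alphaKO arrays, against 10.02, 10.46 and 9.73 in deltaKO and 10.10, 10.60 and 9.83 in DKO arrays. Here no array without p110δ reached any array with it, in a comparison of 6 with 5 arrays, as in 0.694% of clusters. The LMPP contrasts of deltaKO and DKO with WT named these genes. Nothing is therefore read from groups that do not overlap in LMPP, here or for the genes below. The SD within a group was 1.11 to 1.47 in the WT and alphaKO groups and 0.37 to 0.66 in the deltaKO and DKO groups. Ordered by mean, LMPP WT (12.23 ± 1.11, SD, n = 2), HSC WT, LMPP alphaKO and HSC alphaKO (11.52 ± 1.37, SD, n = 3) came before LMPP DKO (10.18 ± 0.39, SD, n = 3), LMPP deltaKO, HSC deltaKO and HSC DKO, and no neighbours in that order differed by more than the larger SD of the pair.

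Plk2, a polo-like kinase that p53 and growth signals induce, also had higher means in WT and alphaKO than in deltaKO and DKO cells, in both cell types. HSC values were 11.89, 12.35 and 10.67 in WT, 12.55, 11.56 and 10.16 in alphaKO, 10.56, 11.03 and 10.72 in deltaKO, and 10.27, 10.40 and 10.39 in DKO arrays. The DKO arrays were within a narrow band (SD 0.07) below all WT and all deltaKO arrays, but 1 alphaKO array was lower still. Of all clusters, 5.12% had HSC DKO arrays below all WT arrays and 3.27% had them below all deltaKO arrays. LMPP values were 12.13 and 12.45 in WT, 12.66, 11.68 and 10.94 in alphaKO, 10.72, 10.95 and 11.50 in deltaKO, and 10.00, 11.34 and 10.26 in DKO arrays. Both WT arrays stood above all deltaKO and DKO arrays, and the alphaKO arrays bridged the ranges. In LMPP, 8.97% of all clusters had deltaKO arrays below both WT arrays and 12.4% had DKO arrays below them. From LMPP WT (12.29 ± 0.23, SD, n = 2) down to HSC DKO (10.35 ± 0.07, SD, n = 3), no neighbouring groups differed beyond their spread.

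Gadd45a, which binds stress kinases and DNA repair factors, spanned 6.88 to 7.93 in HSC and a wider range, 6.68 to 9.13, in LMPP. HSC values were 7.24, 7.93 and 7.56 in WT, 7.13, 7.16 and 6.88 in alphaKO, 7.16, 6.94 and 7.01 in deltaKO, and 6.95, 7.35 and 6.88 in DKO arrays. All 3 alphaKO and all 3 deltaKO arrays were below the WT arrays, and 1 DKO array was within their range. LMPP values were 8.36 and 7.74 in WT, 8.04, 8.15 and 9.13 in alphaKO, 6.68, 6.87 and 6.79 in deltaKO, and 6.94, 8.26 and 6.84 in DKO arrays. The deltaKO arrays were below all WT and alphaKO arrays, 2 DKO arrays were at their level, and the second DKO array was within the WT range. A place of deltaKO LMPP below both WT arrays was found in 8.97% of all clusters. LMPP alphaKO had the highest mean (8.44 ± 0.60, SD, n = 3) and LMPP deltaKO the lowest (6.78 ± 0.09, SD, n = 3), and the neighbours that differed by more than the larger SD were LMPP WT from HSC WT and HSC deltaKO from LMPP deltaKO.

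Pmaip1, a BH3-only protein that promotes apoptosis by blocking MCL1, lay around the filter's threshold in HSC and higher in LMPP. HSC values were 4.79, 5.43 and 4.50 in WT, 5.20, 4.66 and 4.26 in alphaKO, 4.43, 4.68 and 4.69 in deltaKO, and 4.30, 4.43 and 4.56 in DKO arrays. These groups overlapped, with means in the order WT (4.91 ± 0.47, SD, n = 3), alphaKO, deltaKO and DKO (4.43 ± 0.13, SD, n = 3) and gaps smaller than the spread except for the last. LMPP values were 7.10 and 6.36 in WT, 7.50, 6.46 and 6.78 in alphaKO, 5.15, 5.20 and 5.58 in deltaKO, and 6.23, 7.02 and 5.23 in DKO arrays. The deltaKO arrays were below all WT and alphaKO arrays, and the DKO arrays reached from the deltaKO level to the WT level. Among all clusters, 8.97% had deltaKO LMPP below both WT arrays. All 4 LMPP means were above all HSC means, from LMPP alphaKO (6.92 ± 0.53, SD, n = 3) to LMPP deltaKO (5.31 ± 0.24, SD, n = 3), again with gaps smaller than the spread.

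Sesn1, an antioxidant and inhibitor of mTORC1 signalling that p53 and FOXO factors both induce, ran the other way. HSC values were 9.49, 9.41 and 9.82 in WT, 10.07, 9.36 and 9.32 in alphaKO, 9.86, 10.11 and 9.84 in deltaKO, and 9.83, 9.60 and 10.03 in DKO arrays. The deltaKO arrays lay just above all WT arrays, by 0.02 for the nearest pair as printed, and the DKO arrays overlapped them. LMPP values were 9.31 and 8.28 in WT, 10.07, 10.19 and 9.51 in alphaKO, 10.37, 9.88 and 10.44 in deltaKO, and 10.53, 9.60 and 10.43 in DKO arrays. Both LMPP WT arrays were below every knockout array, and the lower of them was the array that stood apart. The share of all clusters above WT without overlap was 12% in alphaKO, 15.2% in deltaKO and 14.7% in DKO LMPP. LMPP WT (8.79 ± 0.73, SD, n = 2) was the lowest group by more than the larger SD, and the other 7 followed each other within their spread up to LMPP deltaKO (10.23 ± 0.31, SD, n = 3).

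Gadd45b, the GADD45 family member tied to inflammatory and growth factor signals, resembled Cdkn1a. HSC values were 11.04, 12.51 and 10.66 in WT, 11.29, 10.72 and 10.53 in alphaKO, 11.13, 9.73 and 9.89 in deltaKO, and 10.69, 10.35 and 10.13 in DKO arrays. The groups overlapped, since the first deltaKO and the first DKO array were above the lowest WT array. LMPP values were 11.26 and 12.35 in WT, 11.98, 10.87 and 11.06 in alphaKO, 10.41, 10.18 and 10.03 in deltaKO, and 10.44, 11.19 and 9.58 in DKO arrays. The deltaKO and DKO arrays were all below WT, though the second DKO array was above 2 of the 3 alphaKO arrays. Such a place below WT was found in 8.97% of all clusters for deltaKO and 12.4% for DKO LMPP. From LMPP WT (11.80 ± 0.77, SD, n = 2) to LMPP deltaKO (10.20 ± 0.19, SD, n = 3) no neighbours differed beyond their spread.

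Ddit3, the transcription factor CHOP that acts late in endoplasmic reticulum stress, was high in few arrays. HSC values were 10.27, 11.80 and 10.11 in WT, 10.81, 9.22 and 9.21 in alphaKO, 9.87, 9.13 and 9.80 in deltaKO, and 9.62, 9.41 and 9.64 in DKO arrays. All deltaKO and DKO arrays were below all WT arrays, and 2 alphaKO arrays were as low. LMPP values were 10.35 and 11.59 in WT, 11.48, 9.41 and 9.55 in alphaKO, 9.04, 9.55 and 9.54 in deltaKO, and 9.33, 9.15 and 9.37 in DKO arrays. As in HSC, 1 alphaKO array was high and the others were near the deltaKO level, and both WT arrays were above all deltaKO and DKO arrays. Clusters with LMPP arrays below both WT arrays made up 8.97% for deltaKO and 12.4% for DKO. The group SD was 0.88 to 1.15 in WT and alphaKO and 0.12 to 0.41 in deltaKO and DKO, and no neighbours in the order of means, from LMPP WT (10.97 ± 0.88, SD, n = 2) to LMPP DKO (9.29 ± 0.12, SD, n = 3), differed beyond the larger SD.

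**Figure D1:**
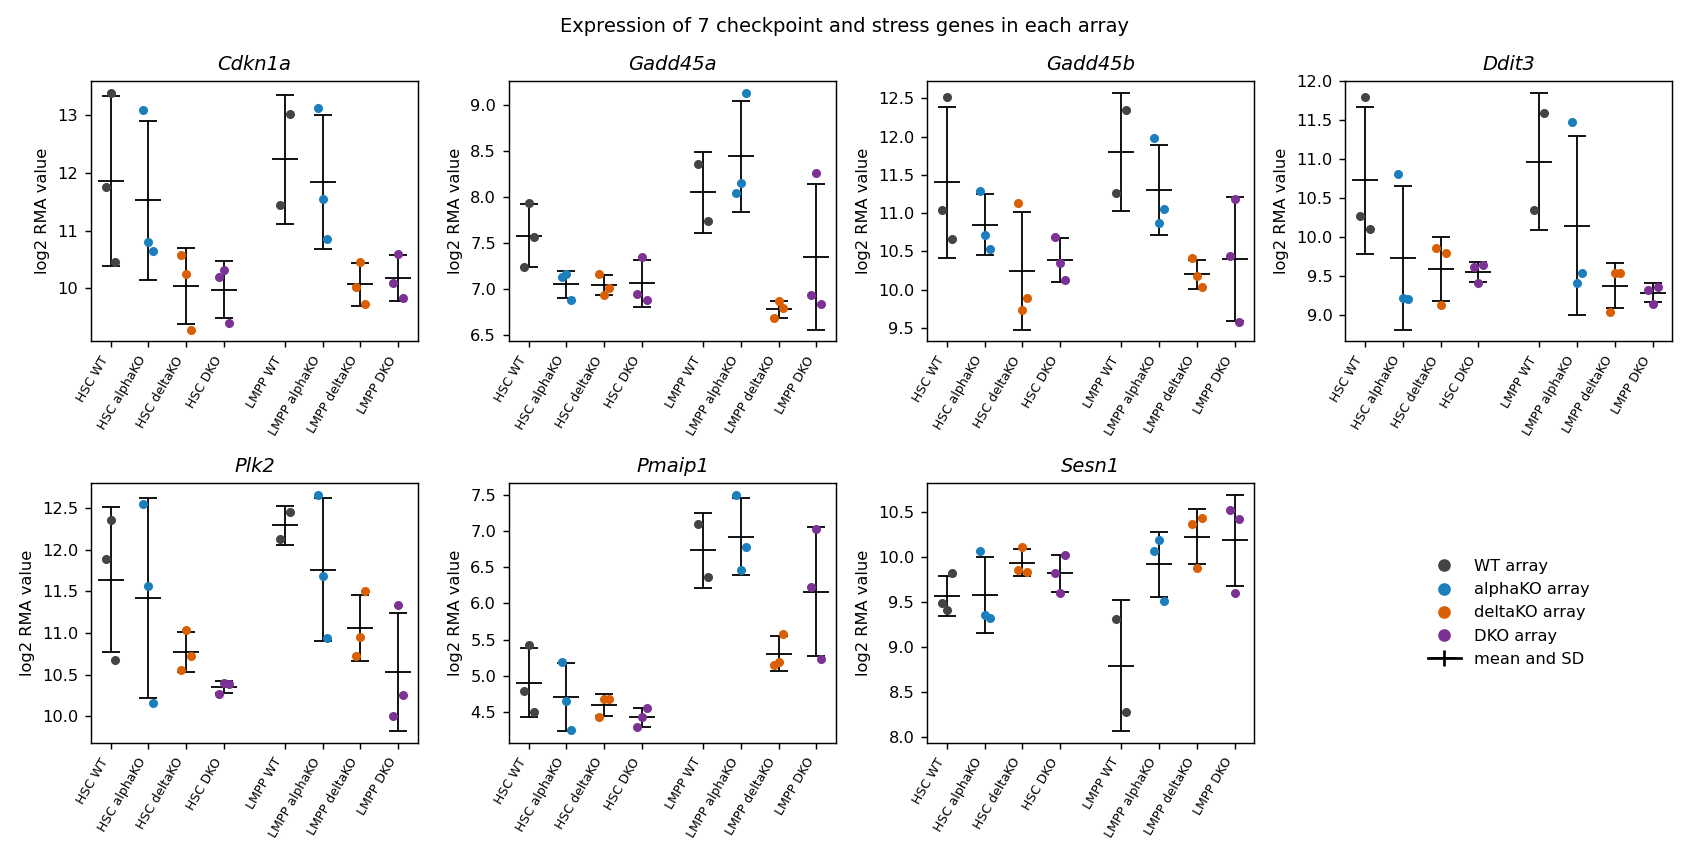
Log2 RMA value of each gene (vertical axes, one panel per gene, own scale) in each array, by cell type and genotype on the horizontal axis, with points for arrays and bars for the group mean and SD (n = 3, LMPP WT n = 2). Cdkn1a spans 10.45 to 13.38 in HSC WT and 9.41 to 10.32 in HSC DKO, and Sesn1 is lowest in LMPP WT.

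The first question is what loss of each PI3K subunit did to these genes in HSC. None of the 7 passed the adjusted threshold in any of the 3 HSC comparisons with WT, where 0.0% (alphaKO), 0.0091% (deltaKO) and 0.0091% (DKO) of all clusters did. Without adjustment, 4 genes had a p below 0.05 in deltaKO HSC (Cdkn1a, Gadd45a, Gadd45b and Ddit3), against 8.37% of all clusters. The same count was reached in DKO HSC (Cdkn1a, Gadd45a, Ddit3 and Plk2), against 8.44%, and in alphaKO HSC it was 1 (Gadd45a), against 2.79%. The 3 comparisons share their WT arrays, and the genes were chosen with earlier results known, so these counts are no independent evidence.

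In deltaKO and DKO HSC the differences were largest for Cdkn1a. Its log2 difference from WT was -1.82 (SE 0.78, limma adjusted p = 0.589) in deltaKO HSC and -1.88 (SE 0.78, limma adjusted p = 0.575) in DKO HSC, levels 3.53-fold and 3.68-fold lower. In alphaKO HSC it was -0.34 with a 95% interval from -2.06 to 1.37, which holds both no difference and a difference as large as in deltaKO. Plk2 differed by -0.87 in deltaKO and -1.28 in DKO HSC, Ddit3 by -1.13 and -1.17, and Gadd45b by -1.15 and -1.01. Gadd45a was lower by nearly the same amount in all 3 knockouts, -0.52 in alphaKO, -0.54 in deltaKO and -0.52 in DKO HSC. Pmaip1 (-0.31 and -0.48) and Sesn1 (0.36 and 0.25) differed least in deltaKO and DKO HSC. Over the 7 genes the median difference was -0.867 in deltaKO and -1.011 in DKO HSC, beside medians of 0.025 and 0.055 over all clusters tested.

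The second HSC WT array carried much of these differences. It was the highest of its group for 6 of the 7 genes, all except Sesn1. Without it none of the 7 genes had an unadjusted limma p below 0.05 in any of the 3 HSC comparisons with WT. The difference of Cdkn1a was then -1.06 in deltaKO and -1.12 in DKO HSC, that of Gadd45b -0.60 and -0.46, that of Ddit3 -0.59 and -0.63, and that of Plk2 -0.51 and -0.93. Arrays of DKO lay below all WT arrays for Cdkn1a, Ddit3 and Plk2, 3 of the 7 genes, where 5.12% of all clusters did so. For deltaKO the genes were Gadd45a and Ddit3, against 4.11%, and for alphaKO Gadd45a, against 3.14%. Sesn1 was higher than WT without overlap in deltaKO HSC, against 7.51% of clusters.

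In LMPP the same 6 genes were lower and Sesn1 was higher in deltaKO and DKO cells, and no gene passed the adjusted threshold. Clusters past it made up 0.0% in alphaKO, 0.388% in deltaKO and 0.0% in DKO LMPP. At an unadjusted p below 0.05 the counts were 7 of 7 in deltaKO, against 12.2% of clusters, 5 of 7 in DKO (all but Gadd45a and Pmaip1), against 14.2%, and 1 of 7 in alphaKO (Sesn1), against 8.73%. Since the genes were named through the LMPP deltaKO and DKO tables, nothing is read from those 2 counts.

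In the authors' deposited table of LMPP deltaKO against WT, Cdkn1a was given a signed linear fold of -4.53, Gadd45b -3.04, Pmaip1 -2.93, Plk2 -2.46, Gadd45a -2.4 and Sesn1 3.06, all with a false discovery rate of 0.778639. In the authors' deposited table of LMPP DKO against WT, Plk2 had -4.28 and Ddit3 -3.07, with a rate of 0.68208. In the limma fit, Cdkn1a differed from WT by -2.16 (SE 0.63, limma adjusted p = 0.276) in deltaKO LMPP and by -2.05 (SE 0.63, limma adjusted p = 0.296) in DKO LMPP. Sesn1 differed by 1.44 (SE 0.38, limma adjusted p = 0.222) in deltaKO, 1.39 (adjusted p = 0.296) in DKO and 1.13 (adjusted p = 0.553) in alphaKO LMPP. Ddit3, which the deltaKO table does not list, differed by -1.59 there and by -1.68 in DKO LMPP. Gadd45b differed by -1.60 and -1.40, and Plk2 by -1.23 and -1.75. Gadd45a differed by -1.27 and -0.70 and Pmaip1 by -1.42 and -0.57, and in alphaKO LMPP these 2 genes were 0.39 and 0.19 above WT.

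With 2 LMPP WT arrays these values rest heavily on each. Without the second array, which stood apart, the Cdkn1a difference was -1.38 in deltaKO and -1.27 in DKO LMPP, and the Sesn1 difference 0.93 and 0.88. Gadd45a (-1.58 and -1.01) and Pmaip1 (-1.79 and -0.94) then differed more from WT in deltaKO and DKO LMPP. Gadd45b (-1.05 and -0.85), Ddit3 (-0.97 and -1.07) and Plk2 (-1.07 and -1.59) differed less. In alphaKO LMPP, the Sesn1 difference went from 1.13 to 0.62, Gadd45a from 0.39 to 0.08, Ddit3 from -0.83 to -0.21 and Plk2 from -0.53 to -0.37. Cdkn1a there turned from -0.39 to 0.40, Gadd45b from -0.50 to 0.05 and Pmaip1 from 0.19 to -0.19 without it. Without the first WT array instead, 3 genes passed the threshold in deltaKO LMPP (Cdkn1a, Gadd45b and Sesn1), 2 in DKO (Cdkn1a and Sesn1) and 1 in alphaKO (Sesn1). These fits compare knockouts with 1 WT array, which is assumed to vary like the other groups.

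**Figure D2:**
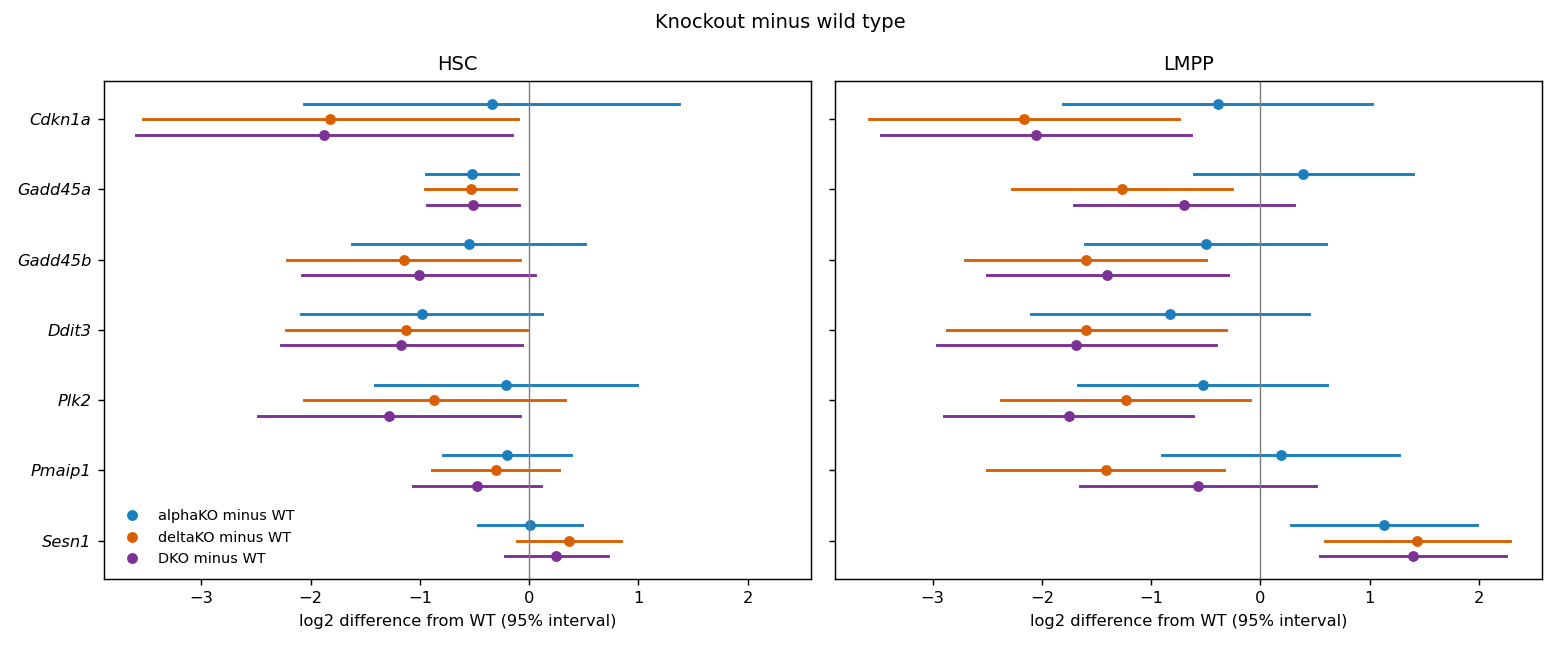
Log2 difference from WT (horizontal axis, points, with 95% intervals from limma as lines) for each gene in HSC (left) and LMPP (right), coloured by knockout. The alphaKO interval of Cdkn1a spans 0 in both cell types, whereas deltaKO and DKO lie at -1.82 and -1.88 in HSC and at -2.16 and -2.05 in LMPP.

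Levels of mature cell markers also differed between the LMPP groups. Of 16 granulocyte and monocyte markers 12 were named, among them S100a8, S100a9, Ltf and Camp, and all 12 were lower in deltaKO than in WT LMPP, 2 of them past the threshold, beside 0.337% of clusters. A marker could be named only where a deposited table listed it for its difference from WT, so nothing is read from that count. In DKO LMPP 9 of the 12 were lower than in WT and 3 higher, Ctsg by 1.19, Ly6c2 by 0.75 and Ms4a3 by 0.68, none past the threshold. The log2 of the summed linear values of the 12 was 18.98 to 20.04 in WT, 18.13 to 20.20 in alphaKO, 13.85 to 16.91 in deltaKO and 16.44 to 19.18 in DKO LMPP. In HSC the sum was lower and overlapped among genotypes, at 12.27 to 14.39 in WT, 9.98 to 13.17 in alphaKO, 10.22 to 14.03 in deltaKO and 10.12 to 14.94 in DKO. Jchain, which encodes the joining chain of immunoglobulins and is the 1 of 7 B-lineage markers that was named, measured 8.39 to 11.00 in WT, 6.36 to 9.48 in alphaKO, 4.74 to 5.88 in deltaKO and 4.77 to 5.77 in DKO LMPP. The sum of the 2 macrophage markers named of 6 (Vcam1 and Slc40a1) was 7.57 to 8.34 in WT, 7.41 to 8.73 in alphaKO, 5.64 to 6.30 in deltaKO and 6.16 to 8.44 in DKO LMPP. That of the 2 mast cell and basophil markers of 6 (Cpa3 and Hdc) was 9.10 to 10.27, 10.06 to 11.20, 7.87 to 10.40 and 8.85 to 11.56 in the same order, with overlap between genotypes. The sum of the 3 HSC markers ran the other way, at 10.80 to 11.63 in WT, 11.18 to 12.29 in alphaKO, 11.84 to 12.29 in deltaKO and 12.30 to 12.87 in DKO LMPP. Tek and Selp were each higher than in WT in all LMPP knockouts. Vwf was not, and differed from WT by -0.15 in alphaKO, -0.23 in deltaKO and -0.08 in DKO LMPP. In HSC the sum of these markers was 12.57 to 12.77 in WT, 12.24 to 12.94 in alphaKO, 12.42 to 12.91 in deltaKO and 13.11 to 13.20 in DKO cells. The part of these cells in the levels of the 7 genes was not tested.

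Since deltaKO and DKO means lay close to each other for many of these genes, the 4 genotypes were also read as a cross of both subunits. In LMPP these means were further apart for Pmaip1 (5.31 and 6.16), Gadd45a (6.78 and 7.35) and Plk2 (11.06 and 10.53). In HSC, the mean of deltaKO and DKO minus the mean of WT and alphaKO was -1.68 for Cdkn1a (SE 0.55, limma adjusted p = 0.273), -0.97 for Plk2 and -0.80 for Gadd45b. Those 3 genes had an unadjusted p below 0.05, against 11.1% of clusters, and none passed adjustment, against 0.291%. In LMPP the Cdkn1a difference was -1.91 (SE 0.43, limma adjusted p = 0.108) and the other 6 genes differed by between -1.25 (Gadd45b) and 0.85 (Sesn1). None passed adjustment, against 0.631% of clusters, and Cdkn1a was the only gene of the 7 whose 6 arrays without p110δ lay below all 5 arrays with it, against 0.694%. The tables that named these genes rest on these LMPP arrays, so nothing is read from that. Without the second LMPP WT array that Cdkn1a difference was -1.52 (limma adjusted p = 0.348). In HSC 5 of the 6 Cdkn1a arrays with p110δ were above all 6 arrays without it, the exception being the third WT array.

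A comparison added after these values had been seen took both cell types together, as genotypes without p110δ minus genotypes with it. Cdkn1a fell by 1.80 (SE 0.37, limma adjusted p = 0.012), Plk2 by 1.10 (SE 0.27, adjusted p = 0.0337), Gadd45b by 1.03 (SE 0.25, adjusted p = 0.0311) and Gadd45a by 0.72 (SE 0.17, adjusted p = 0.0222). Sesn1 rose by 0.58 (SE 0.15, limma adjusted p = 0.0415). Ddit3 differed by -0.94 (adjusted p = 0.0715) and Pmaip1 by -0.69 (adjusted p = 0.0569), neither past the threshold. The Gadd45a fall was mostly in LMPP, at 8.28 ± 0.52 (SD, n = 5) with p110δ and 7.06 ± 0.59 (SD, n = 6) without it. In HSC Gadd45a was 7.31 ± 0.37 (SD, n = 6) with p110δ and 7.05 ± 0.18 (SD, n = 6) without it. The 4 genes that fell stand beside 1.12% of all clusters that did so, and Sesn1 beside 2.23%. Of the HSC markers, Tek rose by 0.58 (SE 0.16, limma adjusted p = 0.0491) and Selp by 0.55 (SE 0.15, adjusted p = 0.0469) in this comparison. Of the 12 granulocyte and monocyte markers, 10 were lower, 9 of them past the threshold. The 2 others, Ctsg (0.32) and Ly6c2 (0.14), were higher and not past it. These markers, too, could be named only where a deposited table listed them for a difference from WT. Nothing is therefore read from their calls here. The part of these cells in the joint values was not tested. The LMPP arrays that led to the choice of these genes are in this comparison and it was chosen for its pattern, so the count is no independent evidence. Cdkn1a was 11.83 ± 1.12 (SD, n = 11) with p110δ and 10.07 ± 0.43 (SD, n = 12) without it, and 1 HSC WT array (10.45) was within the range without it.

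The joint calls depended on the arrays included and on how pairs were treated. Of 41 alternatives, Cdkn1a was called in 39, Gadd45a in 35, Gadd45b in 25, Plk2 in 17 and Sesn1 in 14. The calls of Plk2 and Sesn1 were thus lost in most alternatives. Pmaip1 was called in 5 and Ddit3 in 3. HSC and LMPP arrays of a genotype bear consecutive numbers in their titles in 11 pairs, all of the same labelled sex, and the labels do not say what the numbers stand for. With those pairs as a random block (estimated correlation 0.154) 3 genes were called, Cdkn1a, Gadd45a and Gadd45b, with adjusted p = 0.0527 for Plk2 and 0.0703 for Sesn1 in limma. Without both WT arrays numbered 11 and 12 no gene was called, and Cdkn1a differed by -1.41 (limma adjusted p = 0.0691). The same held without the third DKO array of both cell types, where Cdkn1a differed by -1.68 (limma adjusted p = 0.0524). Without only the second LMPP WT array 2 genes were called, Cdkn1a (-1.60) and Gadd45a (-0.80), and with no filter on low values the count was 2 as well.

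**Figure D3:**
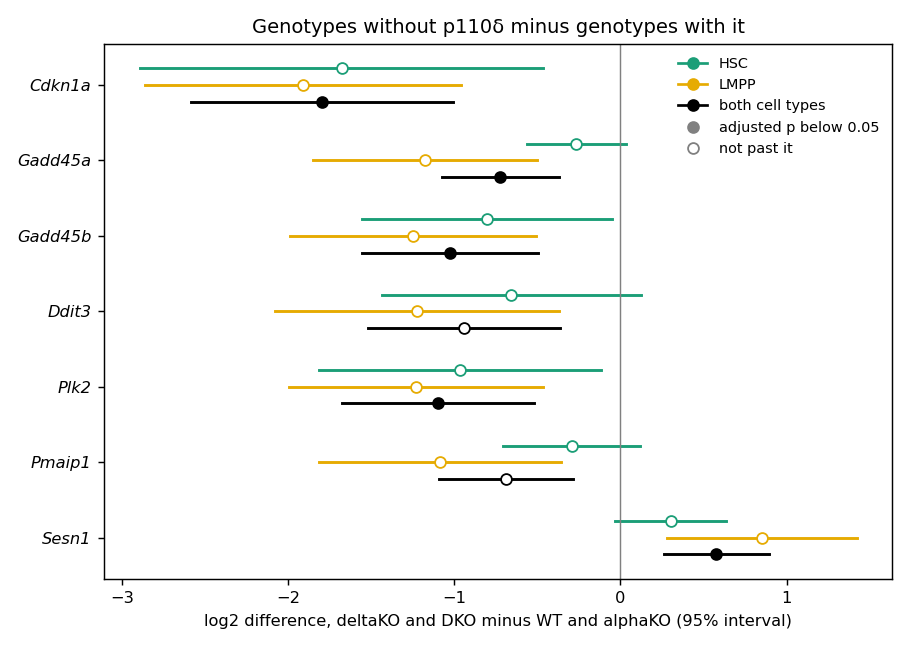
Log2 difference of deltaKO and DKO from WT and alphaKO (horizontal axis, points, with 95% limma intervals as lines) for each gene in HSC, in LMPP and in both together, with filled points for an adjusted p below 0.05. Filled points appear in the joint comparison alone, for Cdkn1a, Gadd45a, Gadd45b, Plk2 and Sesn1.

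Losing p110α on top of p110δ did not add a detectable difference. None of the 7 genes had an unadjusted limma p below 0.05 between DKO and deltaKO, in HSC (against 3.07% of clusters) or in LMPP (against 3.7%). The largest of these differences was 0.85 for Pmaip1 in LMPP (95% interval from -0.12 to 1.81), and the Cdkn1a difference was -0.06 in HSC (interval from -1.78 to 1.66) and 0.11 in LMPP (interval from -1.16 to 1.38). These intervals are wide enough to hold changes of 2-fold and more. Between DKO and alphaKO LMPP, Cdkn1a differed by -1.66, Plk2 by -1.23 and Gadd45a by -1.09, 3 genes with an unadjusted p below 0.05 against 5.35% of clusters, and none passed adjustment, against 0.00606%. The LMPP DKO arrays also had a part in the choice of these genes, so nothing is read from that count. In HSC none passed either, against 0.0121%. There the Cdkn1a difference was -1.54 (limma adjusted p = 0.926), and every DKO array was below every alphaKO array, as in 4.51% of clusters.

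HSC and LMPP differed most in Pmaip1. Averaged over the 4 genotypes, Pmaip1 was lower in HSC by 1.62 (SE 0.19, limma adjusted p = 4.6e-06), and Gadd45a by 0.47 (SE 0.17, limma adjusted p = 0.0479). Pmaip1 passed the filter on low values through LMPP, since its 4 HSC means (4.43 to 4.91) lay under 4.95, so no fold is given. With no filter its difference was -1.62 (limma adjusted p = 8.83e-06). Pmaip1 and Gadd45a were 2 of the 7 genes, beside 23.3% of all clusters past the threshold and 10.5% lower in HSC. The other 5 differed by -0.36 (Plk2), -0.23 (Cdkn1a), -0.21 (Gadd45b), -0.06 (Sesn1) and -0.04 (Ddit3) and did not pass, with 95% intervals for Cdkn1a from -1.02 to 0.56 and for Ddit3 from -0.62 to 0.54. The Pmaip1 call held in all 30 alternatives run, between -1.73 and -1.51, and the Gadd45a call in 9 of 30.

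No difference between genotypes in the size of the cell type difference passed the adjusted threshold for these genes. Pmaip1 in HSC was lower than in LMPP by 1.82 in WT, 2.21 in alphaKO and 1.73 in DKO marrow, all past the threshold, beside 3.75%, 3.78% and 3.09% of clusters lower in HSC. In deltaKO marrow it differed by -0.71 (limma adjusted p = 0.388). Its HSC arrays were below all LMPP arrays in each genotype, as were those of 9.4% of clusters in deltaKO, 11.5% in alphaKO and DKO, and 17.0% in WT marrow. Gadd45a was lower by 1.39 in alphaKO HSC (limma adjusted p = 0.0115) and differed by -0.47 in WT, -0.29 in DKO and 0.26 in deltaKO marrow. Sesn1 differed by 0.78 in WT and by -0.34, -0.29 and -0.37 in alphaKO, deltaKO and DKO marrow. Without the second LMPP WT array the WT value was 0.27 for Sesn1 and -2.19 for Pmaip1, and the call of Pmaip1 stayed. Without the first it was 1.29 for Sesn1 (limma adjusted p = 0.0169), which was then called, and -1.45 for Pmaip1 (limma adjusted p = 0.0506), which was not. In the test of whether the knockout effects differed between cell types, a limma F test over the 3 knockouts, none of the 7 passed adjustment, against 0.0121% of clusters. The smallest p-values were 0.0165 for Gadd45a (adjusted p = 0.661), 0.0537 for Sesn1 and 0.0629 for Pmaip1 (both adjusted p = 0.725). The LMPP contrasts of deltaKO and DKO with WT named the genes of this set. Nothing is therefore read from how the cell type difference varied between genotypes. The granulocyte and monocyte markers also separated the cell types, all 12 being lower in HSC, and their part in the Pmaip1 and Gadd45a differences was not tested.

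**Figure D4:**
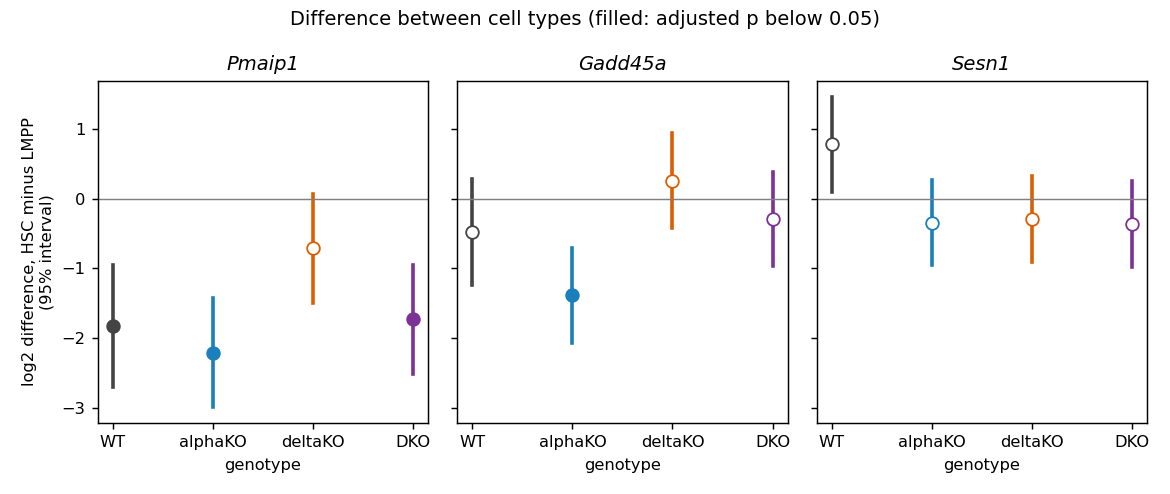
Log2 difference of HSC from LMPP (vertical axis, points, with 95% limma intervals as lines) in each genotype for Pmaip1, Gadd45a and Sesn1, with filled points for an adjusted p below 0.05. Pmaip1 is below 0 in all genotypes and nearest to it in deltaKO (-0.71), and Gadd45a is past the threshold in alphaKO alone. These genes were named through the LMPP contrast of deltaKO with WT, so nothing is read from differences between genotypes.

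Cdkn1a, Gadd45b, Ddit3 and Plk2 varied together from array to array, also within a genotype. The second WT array and the first alphaKO array were the highest of their groups for all 4 genes, in HSC and in LMPP alike. In both cell types these arrays bear consecutive title numbers, 11 and 12 for WT and 3 and 4 for alphaKO. After group means were removed, Pearson's r over the 23 arrays was 0.82 between Cdkn1a and Ddit3, 0.80 between Cdkn1a and Gadd45b and 0.76 between Cdkn1a and Plk2. For the other p53 targets r with Cdkn1a was lower, 0.47 for Pmaip1, 0.01 for Gadd45a and -0.08 for Sesn1. Among these 4 genes r was lowest between Gadd45b and Plk2 (0.54). Pmaip1 went with Plk2 (0.70), Gadd45b (0.55) and Gadd45a (0.51), and Sesn1 was opposed to Gadd45a (-0.45). These values describe 23 arrays that share their hybridisation and normalisation, and no test was made.

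**Figure D5:**
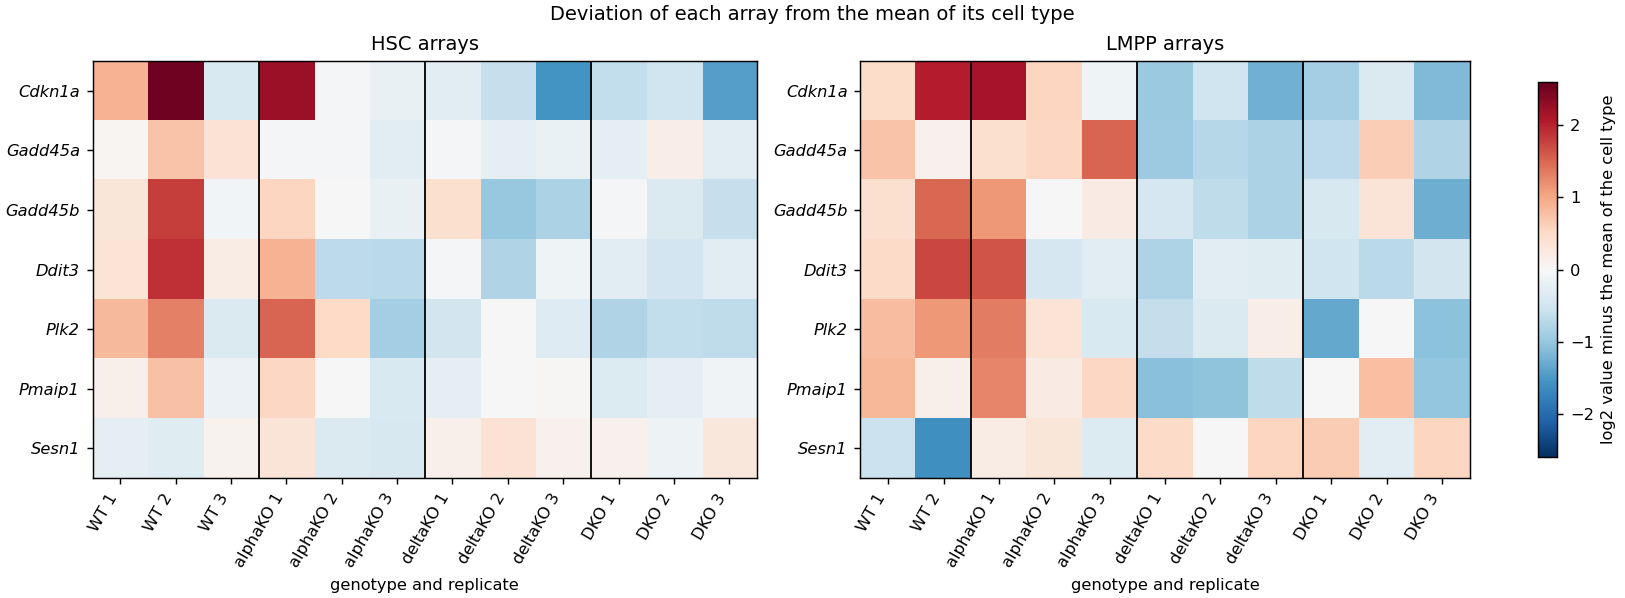
Deviation of each array from the mean of its cell type (colour, log2 units) for each gene (rows) in each array (columns, by genotype and replicate), HSC left and LMPP right. The second WT and the first alphaKO array are the 2 highest for Cdkn1a, Gadd45b, Ddit3 and Plk2 in both cell types, and Sesn1 is lowest in the second LMPP WT array.

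The genes most like each member, by Pearson's r over the 23 arrays after the mean of each cell type was removed, were sought among 254 other named genes that passed the filter. Cdkn1a was most like Tiparp (r = 0.92), Cpeb2 and Tnfaip3 (both r = 0.91), Gadd45b most like Vamp3 (0.87), Tnfaip3 and Plk3 (both 0.83), and Plk2 most like Rnf19b (0.88), Cpeb2 and Vamp3. Ddit3 was most like Herpud1 (0.88), an endoplasmic reticulum stress gene, Rnf19b (0.88) and Sqstm1 (0.86). Gadd45a was most like Dgat2 and Fam101b (both 0.90) and Clec4a2 (0.89), and Pmaip1 most like Epx (0.83), the eosinophil peroxidase, Bcl6 (0.82) and Il1r2 (0.78). Sesn1 was most like Kdm5b and Tom1l2 (both 0.90) and Stat4 (0.87). Median r over the compared genes was between -0.05 and 0.27. Cdkn1a, Gadd45b, Ddit3 and Plk2 thus each had a neighbour in common with another of them, and Sesn1, Gadd45a and Pmaip1 had neighbours of their own. The compared genes are those that a deposited table listed.

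Few other genes of the same pathways could be named, because symbols came from the deposited tables, which list genes for their difference between a knockout and WT. The calls, directions and medians below, in the joint comparison and against WT, are therefore no independent evidence. Of 33 p53 targets and regulators 6 were named, 5 of them members, and the remaining one was Plk3, a polo-like kinase. Plk3 fell by 1.13 (SE 0.24, limma adjusted p = 0.0135) in the joint comparison and differed by -1.22 in HSC and -1.58 in LMPP between DKO and WT, neither past the threshold. Of 19 genes of the integrated stress and unfolded protein response 2 were named, Ddit3 and Herpud1, and Herpud1 fell by 0.69 (SE 0.15, limma adjusted p = 0.0182) in the joint comparison. Trp53, Mdm2 and Bbc3 were among the genes not analysed here.

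The immediate early genes that could be named were lower in the same genotypes. Cells switch on such genes within minutes of a stimulus or of tissue dissociation. Of 32 on the list 7 were named, Gadd45b and 6 others. In the joint comparison 5 of the 6 fell, beside 1.12% of all clusters, among them Nr4a1 by 1.62 (SE 0.22, limma adjusted p = 0.00146), Ptgs2 by 1.05 (SE 0.13, adjusted p = 0.000795), Tnfaip3 by 1.11 (SE 0.24, adjusted p = 0.0141) and Dusp4 by 1.04 (SE 0.21, adjusted p = 0.0112). The median over the 6 was -1.08, beside 0.026 over all clusters. In deltaKO and DKO against WT all 6 were lower in HSC and in LMPP, with medians from -1.21 to -1.46, and none passed adjustment. They could be named only because a deposited table listed them for a difference from WT. Nothing is therefore read from their direction or medians. The list was chosen with earlier results known, and the part of handling or dissociation in these levels was not tested.

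The FOXO targets did not move as one. Of 20 on the list 9 were named, 3 of them members, and of the 6 others 1 fell in the joint comparison (Bcl6, a transcriptional repressor, by 0.45, limma adjusted p = 0.0234). Insr, the insulin receptor, differed by 0.30 (adjusted p = 0.206), Rictor, a part of mTORC2, by 0.21 (adjusted p = 0.431) and Irs2 by -0.47 (adjusted p = 0.452). Of the 6 others, 4 had a negative difference and 2 a positive one, with a median of -0.46 beside 0.026 over all clusters. Of 20 genes of cell cycle inhibition and mitosis 5 were named, all mitotic or replication genes (Bub1, Cenpe, Kif11, Top2a and Cdc6). None of the 5 passed in the joint comparison, whose median over them was -0.07, and all 5 were past the threshold and lower in HSC than in LMPP, with a median of -1.28, beside 10.5% of all clusters.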

How the data were processed

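RNA of 23 sorted samples was measured on 1 array each. The deposited log2 values are RMA expression values from Affymetrix Expression Console, per the labels, which summarise probes, correct background and normalise between arrays. The 6 comparison tables were made by the authors with Transcriptome Analysis Console, per the submitters' processing notes, and give a signed linear fold score, an ANOVA p-value and a false discovery rate per cluster. Versions and the annotation's build were not given in the sources used here.

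Of 72688 rows, 6732 array controls were left out, and clusters with a mean of at least 4.95 were tested (32978). Log2 values were fitted with limma 3.58.1 in R 4.3.3 (lmFit and eBayes), per cell type for comparisons of genotypes and over all 8 groups for comparisons of cell types and for the joint comparison of p110δ loss. Intervals are 95% intervals. The number of arrays limits the precision. Gene names come from clusters with exactly 1 symbol in a comparison table, and symbols were matched to RefSeq for promoters and chromosomes. The fit was tested on simulated data. No 2 arrays held identical values.

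The 7 genes, the marker and pathway lists, the motifs and the rule for named genes (all members, up to 3 genes most like each, up to 4 genes per list with the smallest p) were chosen with earlier results of these data known. Alternatives were no filter, sex as a covariate, array weights, trended and robust priors, identical clusters counted once, arrays shifted to one median, other sets of groups in the fit, each array left out in turn, and, added after seeing the data, the joint comparison, title pairs as a random block and both arrays of a pair left out.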

Additional observations from a re-analysis of the deposited data

How the results depend on the processing

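Of 404 counts of called genes under alternatives, over 23 comparisons, 345 stayed within 1.5 times the value in the report. Of 1558 alternative values of single genes 1407 kept their direction and side of the threshold, 103 lost a call, 21 gained one and 27 changed sign. Only values past the threshold in the report could lose a call, and most values were not past it. The 103 are therefore a much larger share of the calls than of the 1558. No gene was called in any HSC comparison of genotypes under any alternative run. With all 8 groups in one fit 1 gene was called in deltaKO against WT LMPP (Sesn1) and 1 in the LMPP contrast of p110δ loss (Gadd45a). Leaving out an array gave 0 to 1 called genes for alphaKO, 0 to 3 for deltaKO and 0 to 2 for DKO against WT in LMPP, and 0 to 3 for LMPP p110δ loss.

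For HSC against LMPP averaged over genotypes the count was 1 (Pmaip1) with no filter, with sex, with array weights, with trended and robust priors and with arrays shifted to the same median, and 1 to 2 with an array left out. It was 0 in WT with array weights or only the 2 groups, 1 in alphaKO and 0 in DKO marrow with only the 2 groups, and 1 to 2 in alphaKO with an array left out. For the joint comparison it was 2 with no filter, 3 with title pairs as a random block, and 0 to 6 with an array or a pair left out.

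Shifting arrays to the same median moved the median difference of all clusters from 0.04 to 0.26 in alphaKO, from 0.07 to 0.23 in deltaKO and from 0.05 to 0.25 in DKO against WT in LMPP, and Sesn1 in alphaKO HSC then changed sign to -0.06 and Ddit3 between cell types to 0.01. Values that changed sign with an array left out were, in alphaKO against WT HSC, Cdkn1a (-1.13 to 0.42), Gadd45b (-0.92 to 0.00), Plk2 (-0.78 to 0.42), Pmaip1 (-0.45 to 0.06) and Sesn1 (-0.24 to 0.14). In alphaKO against WT LMPP they were Cdkn1a (-1.18 to 0.40), Gadd45b (-1.05 to 0.05) and Pmaip1 (-0.19 to 0.56). Between cell types they were Ddit3 (-0.19 to 0.13) and Sesn1 (-0.18 to 0.07), and in DKO marrow Gadd45a (-0.54 to 0.16). None of these was past the threshold, and the cause was not tested. The labels give no replicate numbers shared between groups, so pairing by consecutive title numbers was run only as a random block, and apart from the joint comparison it changed no count in the 6 other comparisons that hold both cell types. Pmaip1 in HSC lay near the array's median signal, which limits how small a difference could be seen.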
